A study of Homo sapiens with 4 samples.

Results

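The transcripts described here are BLOC1S5-TXNDC5, C1QTNF3-AMACR and PDCD6-AHRR, which are readthroughs of neighbouring genes, and the histone gene H4C11. They come from the authors' table of genes higher with NCBP2, whose genes were selected on their fold change and p-value in these same libraries. The 3 genes described there as readthroughs and the gene named H4C11 make 4 of 38 listed genes. RNA sequencing was done on HCT116, an established line of human colorectal cancer cells, grown with serum. Of 4 libraries, 2 came from cells overexpressing NCBP2 and 2 from cells of the PCDH control, PCDH being the vector of the control group. The labels do not say whether the overexpressing cells were a pool or 1 clone, and they do not tie the libraries to separate cultures, so any spread within a group may be only technical. The question taken up is how levels differed between these groups for transcripts whose making depends on 3' end processing.

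The NCBP2 protein is the smaller partner in the nuclear cap-binding complex, which holds the methylated cap of a new transcript together with NCBP1. The complex is known to help bring the factors for splicing, export and 3' end processing to the RNA. A readthrough RNA arises when transcription passes the end of one gene and runs into the next, and splicing then joins exons of both. Messages of replication-dependent histones lack a poly(A) tail: they are cut after a short stem-loop that the protein SLBP binds, and the cap-binding complex is known to take part in this cut.

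NCBP2 itself had levels of 1067 and 1096 in NCBP2 libraries, against 77.6 and 59.4 in PCDH control libraries, so the overexpressed gene fitted the labels. Ratios of levels and deposited folds differed: the means of NCBP2 stood in a 15.8-fold ratio, whereas the authors' deposited table gives a fold of 5.24. The unit of the levels is not named in the table, and the depth of the libraries is unknown. Every listed gene was called higher by the authors, with a fold of at least 2.01 and a p-value of at most 0.0495 in the authors' deposited table, so the levels below chose the genes and are a description without a test. Among the 4 transcripts the fold nearest to that limit was 2.21 for PDCD6-AHRR and the p-value nearest to it was 0.0329 for C1QTNF3-AMACR, again in the authors' deposited table; genes beyond the limits were not analysed here. None of 20 markers of colon epithelium and other cell types was among the listed genes, so the labelled cell type could not be checked. In RNA from whole cultures, more cells with a transcript and more of it per cell cannot be told apart.

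All 3 readthroughs and H4C11 were higher in both NCBP2 libraries than in both PCDH control libraries. BLOC1S5-TXNDC5 and H4C11 were listed at 0 in both controls, C1QTNF3-AMACR in 1 control, and PDCD6-AHRR in none. Groups that do not overlap were seen for 86.8% of the listed genes, so 4 of 4 is near the background of a list chosen for such differences. Of all listed genes, 18.4% were at 0 in both controls, against 2 of these 4.

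**Figure D1:**
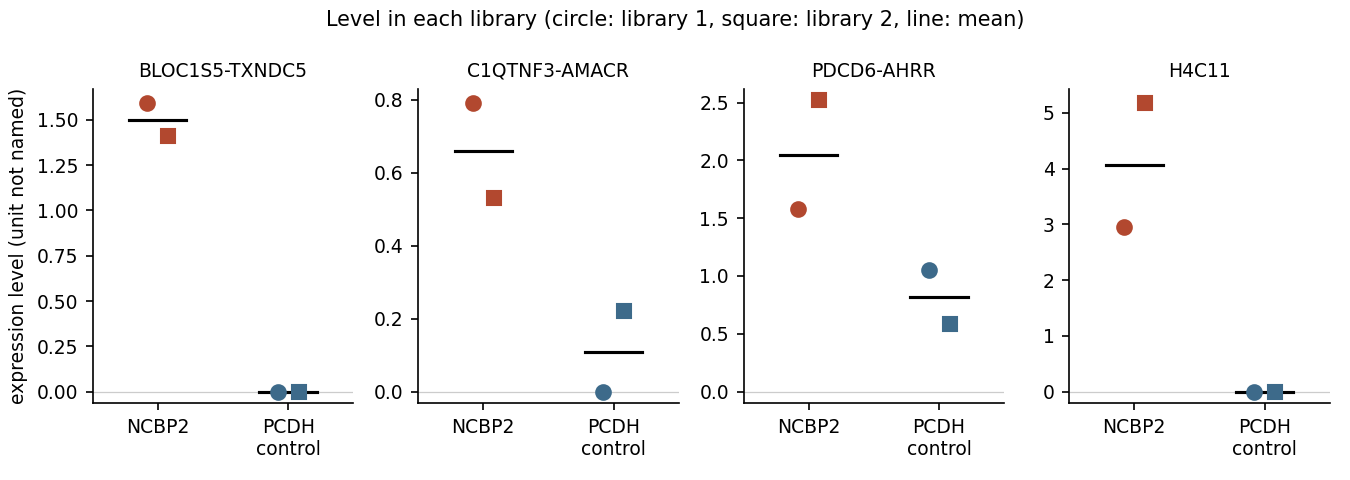
Expression level (unit not named) of the 4 transcripts in the 2 NCBP2 libraries (left) and the 2 PCDH control libraries (right); points are libraries, lines are means, and each panel has its own linear axis. Both NCBP2 libraries lie above both controls in each panel, by the smallest margin, 0.31, for C1QTNF3-AMACR.

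BLOC1S5-TXNDC5 joins BLOC1S5, a subunit of the BLOC-1 complex that helps build lysosome-related organelles such as melanosomes, to TXNDC5, a protein disulfide isomerase of the endoplasmic reticulum. Its level was 1.59 and 1.41 in NCBP2 libraries, against 0 and 0 in PCDH control libraries. The NCBP2 libraries differed little from each other, and both controls were at the bottom of the scale. Mean levels were 1.5 ± 0.127 in NCBP2 libraries and 0 in PCDH control libraries (SD, n = 2 each). Because the control is listed at 0 and counts are not given, no fold is computed from the levels. The authors' deposited table nevertheless holds a fold of 355, the highest of its 38 genes; how a fold was obtained against 0 is not given there or in the labels. Its p-value in the authors' deposited table was 8.09e-08, the smallest but for NCBP2, and after adjustment 4.79e-04. It was the only 1 of the 4 transcripts to pass 0.05 after adjustment in the authors' deposited table, where 7.89% of listed genes passed.

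The gene lies on the minus strand of chromosome 6 in GRCh38 (ENSG00000259040, 7881522 to 8064364, GENCODE 29). Its annotated transcript has 13 exons and 3030 bases, with 4 exons shared with BLOC1S5 and 9 with TXNDC5. Every one of the 3030 bases lies in an exon of one of these genes on the same strand, and what sets the RNA apart is the join between exon 4 and exon 5. That join spans an intron of 121643 bp, and the partner genes themselves lie 102752 bp apart. The start of the annotated transcript is marked as incomplete.

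C1QTNF3-AMACR joins C1QTNF3, a secreted relative of the complement protein C1q that is made by fat tissue, to AMACR, a racemase needed to break down branched-chain fatty acids and bile acid intermediates. Its level was 0.79 and 0.53 in NCBP2 libraries, against 0 and 0.22 in PCDH control libraries. The groups were separate, with control library 2 nearest to the NCBP2 libraries. The lower NCBP2 library was 2.41 times the higher control. Mean levels were 0.66 ± 0.184 in NCBP2 libraries and 0.11 ± 0.156 in PCDH control libraries (SD, n = 2 each). The means stood in a 6-fold ratio, against a median of 2.60 over the 31 listed genes with a control level above 0. The control mean rests on 1 library, so this ratio is uncertain. The difference on the log2(level + 1) scale was 0.58, and it was 2.07 with 0.1 added in place of 1. The authors' deposited table gives a fold of 4.84 and, after adjustment, a p of 0.978, which 19 of the listed genes share.

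C1QTNF3-AMACR differed from most of the list in the order of its controls. Control library 2 was above control library 1 in only 2 of the 30 listed genes whose controls differed, and these were C1QTNF3-AMACR and RDH5. It was below in the other 28, PDCD6-AHRR among them. For C1QTNF3-AMACR the order rests on 0 against 0.22, near the bottom of the scale, and the reads behind these levels are unknown. RDH5, a retinol dehydrogenase, had levels of 8.55 and 6.07 in NCBP2 libraries, against 2.36 and 2.49 in PCDH control libraries. The observation on control order was made after the values were seen.

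C1QTNF3-AMACR lies on the minus strand of chromosome 5 in GRCh38 (ENSG00000273294, 33987174 to 34124528, GENCODE 29). Its annotated transcript has 9 exons and 3424 bases, of which 5 exons are shared with C1QTNF3 and 3 with AMACR. Its first exon, of 111 bases, lies in no GENCODE 29 exon of either gene, 88770 bp ahead of the second exon. RefSeq places C1QTNF3 from 34017858 to 34244724, a span that takes in this exon, and RefSeq exons were not compared. In GENCODE 29 the partner genes lie 11339 bp apart, and the intron that joins them, between exon 6 and exon 7, spans 14687 bp.

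**Figure D2:**
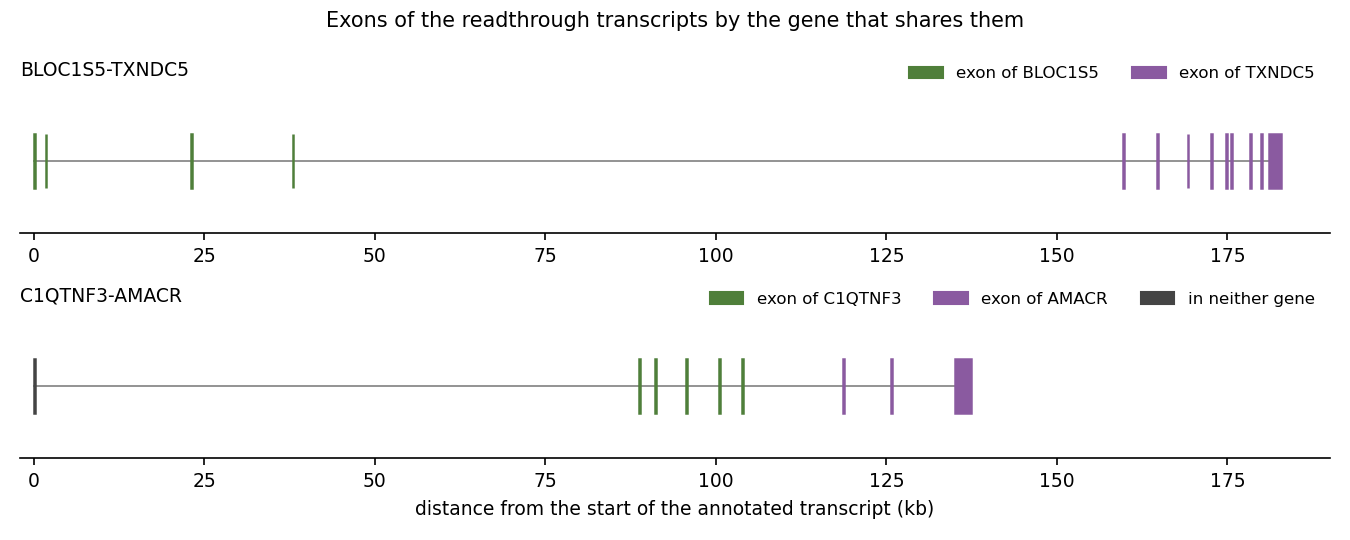
Exons (boxes) of the annotated BLOC1S5-TXNDC5 and C1QTNF3-AMACR transcripts by distance in kb from the transcript's start, coloured by the partner gene that shares them. The 4 exons of BLOC1S5 and 9 of TXNDC5 stand on either side of a 121643 bp intron, and the first exon of C1QTNF3-AMACR belongs to neither partner.

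The joins of these readthroughs are shown because, by the exons of GENCODE 29, only reads across them, or in that first exon, tell the readthrough from its partner genes. Each is 30 bases, 5′ to 3′, with the end of the upstream gene's exon in lower case and the start of the downstream gene's exon in capitals, from the GENCODE 29 transcripts.
BLOC1S5-TXNDC5: caggaacgaaaaaagGTGTGGACACTGCCA
C1QTNF3-AMACR: gctctttgaaactaaGTGTCATGGAGAAAC
On GRCh38 the exons joined are chr6:8026367-8026425 with chr6:7904574-7904723, and chr5:34020587-34020742 with chr5:34005756-34005899, all on the minus strand.

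Each of these annotated transcripts is typed as a target of nonsense-mediated decay, the pathway that removes RNAs with a stop codon well ahead of their last exon junction. In BLOC1S5-TXNDC5 the stop codon is in exon 5, the first exon of TXNDC5 in the RNA, and 874 nt ahead of the last junction. In C1QTNF3-AMACR it is in exon 8, the middle exon of the 3 from AMACR, and 165 nt ahead of the last junction. The authors' table describes all 3 readthroughs as candidates for this decay.

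PDCD6-AHRR joins PDCD6, a calcium-binding protein of membrane traffic and cell death also called ALG-2, to AHRR, the repressor of the aryl hydrocarbon receptor. Its level was 1.58 and 2.52 in NCBP2 libraries, against 1.05 and 0.58 in PCDH control libraries. It is the only 1 of the 4 with a level above 0 in every library, and the lower NCBP2 library was 1.5 times the higher control. Mean levels were 2.05 ± 0.665 in NCBP2 libraries and 0.815 ± 0.332 in PCDH control libraries (SD, n = 2 each). The means stood in a 2.52-fold ratio, just under the listed genes' median of 2.60. The difference of means was 1.235, and 0.765 without NCBP2 library 2. Its log2(level + 1) difference was 0.74, with 1.25 when 0.1 was added in place of 1, and the median over the 31 listed genes with a control level above 0 was 0.67. The authors' deposited table gives a fold of 2.21, a p-value of 0.00179 and, after adjustment, 0.533.

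The identifier of PDCD6-AHRR (ENSG00000288622) is not in GENCODE 29, and no exon structure of it was used here. RefSeq places it on chromosome 5 of GRCh38.p14, from 271646 to 438285, the start of PDCD6 and the end of AHRR. Its RefSeq promoter window, chr5:271396-271695 on the plus strand, is the same as that of PDCD6. BLOC1S5-TXNDC5 likewise has the same window, chr6:8064365-8064664 on the minus strand, as 1 of the 2 RefSeq windows of BLOC1S5. GENCODE 29 also files a 5-exon transcript under PDCD6; its last 2 exons are shared with AHRR and not with the other PDCD6 transcripts, and it too is typed as a decay target.

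None of the 6 partner genes was among the listed genes, and their levels were not analysed here. Whether a readthrough rose with its upstream gene or apart from it therefore cannot be told from these values. Reads of the partner genes move to a readthrough, or away from it, with the way shared reads were assigned, which the sources used here do not give.

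H4C11 encodes histone H4, a core protein of the nucleosome made mostly while DNA is copied. Its level was 2.95 and 5.17 in NCBP2 libraries, against 0 and 0 in PCDH control libraries. Library 2 of the NCBP2 cells was 1.75 times library 1, a wider gap than for BLOC1S5-TXNDC5, and both controls were at the bottom of the scale. Whether the libraries were selected for poly(A) is not given. If they were, H4C11 messages without a tail would be largely missed, so a level of 0 need not mean that the message was absent. Mean levels were 4.06 ± 1.57 in NCBP2 libraries and 0 in PCDH control libraries (SD, n = 2 each), and no fold is computed against 0. The authors' deposited table holds a fold of 48.6, the fourth highest of the list, with a p-value of 0.0122 and with 1 entered after adjustment, as for 6 listed genes in all.

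H4C11 is a gene of a single exon on the plus strand of chromosome 6 in GRCh38 (ENSG00000197238, 27824108 to 27824480, named HIST1H4J in GENCODE 29). Of 15 H4 genes looked for, it was the only listed one, and no linker, H2A, H2B or H3 gene of the replication-dependent kind was listed. In a list of only 38 genes, such absences say little about the other histone genes. Its coding sequence of 309 nt was compared with those of the other 14 H4 genes in GENCODE 29. The coding sequence of H4C12 was identical to it, base for base. The other 12 genes with a coding sequence of the same length differed at 30 (H4C9) to 61 (H4C3) bases, with 80.3% identity for H4C3 and 90.3% for H4C9. H4C7 has a coding sequence of 294 nt and was not aligned.

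The stem-loop of H4C11 marks where its 3' end is made, since such messages are cut just after it. It begins 22 nt after the stop codon, and the annotated transcript ends 44 nt after that codon. The 28 bases around it are printed, 5′ to 3′, for the 5 H4 genes whose annotated transcripts hold GGNNCTTTTCAGNNCC, with the 16 bases of the stem-loop in capitals.
H4C11: aataaaaGGCCCTTTTCAGGGCCaccct
H4C2: ttccaatGGCCCTTTTCAGGGCCgccca
H4C5: aatcaaaGGCCCTTTTCAGGGCCgccca
H4C8: aaccaaaGGCCCTTTTCAGGGCCgccca
H4C16: tccaaaaGGCCCTTTTCAGGGCCcccaa
All 5 have the same 16 bases, and only the flanks differ. Most of this sameness was set by the search, in which only the letters written N were free. H4C11 lies at chr6:27824452-27824479 on the plus strand; the others are H4C2 at chr6:26026896-26026923 on the minus strand, H4C5 at chr6:26204994-26205021 on the plus strand, H4C8 at chr6:26285126-26285153 on the minus strand and H4C16 at chr12:14770719-14770746 on the minus strand (GRCh38). The letters were searched on the transcript strand only, and transcripts of 33 of 19922 protein-coding genes (0.166%) hold them, 21 of these being replication-dependent histones by name. For 6 of the 15 H4 genes the annotated transcript ends at the stop codon, H4C12 among them, so no stem-loop could be seen in it. Annotated transcripts of H4C3, H4C9, H4C14 and H4C15 run past the stop codon but do not hold the searched letters. A stem-loop that differs at the fixed letters would be missed, so these genes are not shown to lack one. The search first planned, for a single spelling with no free letters, found 0 of the 15 H4 genes, H4C11 included.

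The 250 bases ahead of the RefSeq start of H4C11 (chr6:27823842-27824091, GRCh38.p14, plus strand) are printed because of its listed levels. These were above 0 in NCBP2 libraries and 0 in the controls, and whether they come from H4C11 alone was not tested. Capitals mark GGTCCG and the TATA box letters TATAAA.
H4C11: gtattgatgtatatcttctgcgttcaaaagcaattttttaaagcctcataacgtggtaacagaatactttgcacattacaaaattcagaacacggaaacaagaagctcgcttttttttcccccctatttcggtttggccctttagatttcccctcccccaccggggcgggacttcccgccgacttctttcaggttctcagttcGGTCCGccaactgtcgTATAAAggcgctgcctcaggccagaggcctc
TATAAA begins 31 bases ahead of the start and GGTCCG 47 bases ahead. Searched on both strands of 300-base windows, TATAAA was in 11.5% of 35116 RefSeq promoters and in 7 of 13 H4 promoters. GGTCCG, part of a known H4 promoter element and chosen after the sequence was seen, was in 11.3% of all promoters and in 12 of 13 H4 promoters. CCAAT, in 34.6% of all promoters, was in the PDCD6-AHRR window and not in those of H4C11 and BLOC1S5-TXNDC5. Neither TATAAA nor GGTCCG was in the windows of the 2 readthroughs.

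How much of each RNA could be told from other genes was counted in GENCODE 29 by taking every fragment of 50, 100 or 150 bases of the annotated transcript and looking for it, on either strand, in transcripts of other genes. For BLOC1S5-TXNDC5, 46 of 2981 fragments of 50 bases (1.54%) and 146 of 2881 fragments of 150 bases (5.07%) were in no other gene. For C1QTNF3-AMACR the shares were 4.56% at 50 bases and 7.79% at 150 bases. For H4C11, 61 fragments were in no other gene at each length, which is 18.8% at 50 bases and 27.2% at 150 bases, and H4C12 was the only other gene that held the rest. The annotated H4C12 transcript holds only the coding sequence and stop codon, so H4C11 bases outside these had nothing in H4C12 to match. The shares for H4C11 may therefore be too high. BLOC1S5-TXNDC5 and C1QTNF3-AMACR thus have few positions of their own, and the coding part of H4C11 cannot be told from that of H4C12. The sources used here do not give the read length.

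**Figure D3:**
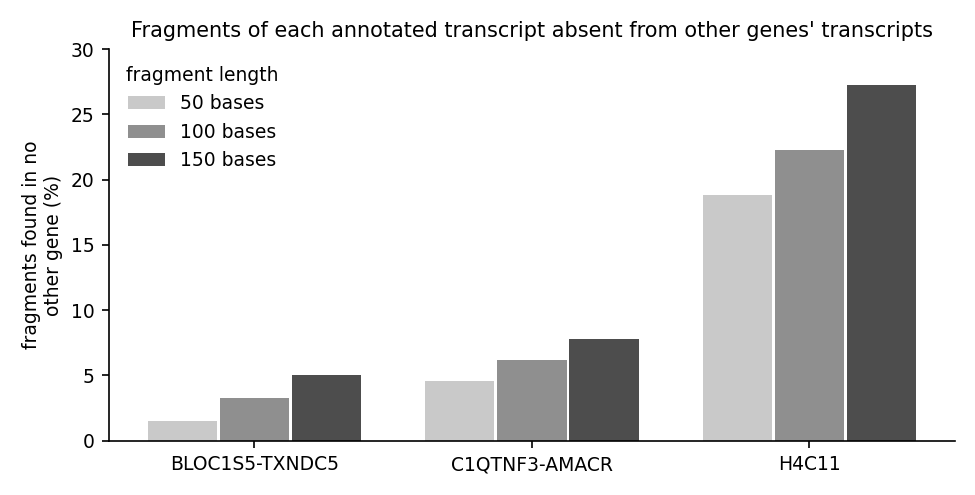
Share (%) of all fragments of 50, 100 or 150 bases of 3 annotated transcripts that occur in no other gene's transcript in GENCODE 29. The share is 1.54% to 5.07% for BLOC1S5-TXNDC5, 4.56% to 7.79% for C1QTNF3-AMACR and 18.8% to 27.2% for H4C11. The share for H4C11 may be too high, since the annotated H4C12 transcript holds only the coding sequence and stop codon.

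The 4 transcripts did not share one pattern over the libraries. Each level was divided by the gene's sum over the 4 libraries. The NCBP2 libraries held 100% of the summed level for BLOC1S5-TXNDC5 and H4C11, 85.7% for C1QTNF3-AMACR and 71.6% for PDCD6-AHRR. NCBP2 library 2 was above library 1 for PDCD6-AHRR and H4C11 and below it for BLOC1S5-TXNDC5 and C1QTNF3-AMACR, and in the whole list it was above in 23 genes and below in 15.

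**Figure D4:**
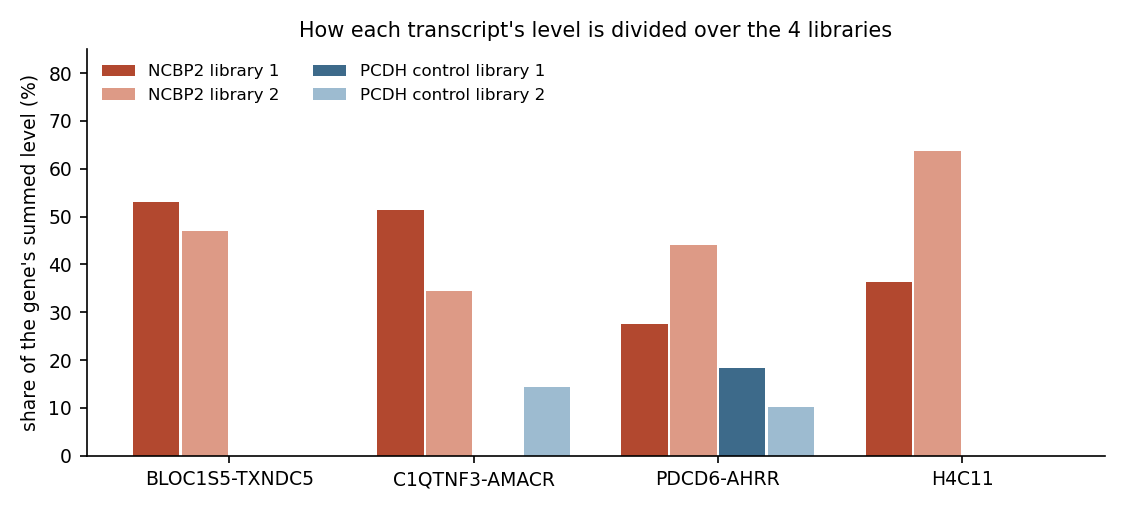
Share (%) of each gene's summed level found in each of the 2 NCBP2 libraries and the 2 PCDH control libraries. BLOC1S5-TXNDC5 is split 53% and 47% over the NCBP2 libraries, H4C11 36.3% and 63.7%, and only PDCD6-AHRR has a share in all 4 libraries.

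The unlikeness of 2 profiles was taken as the part of the summed level that would have to move between libraries to make them the same, from 0 for identical to 1 for no overlap, over 4 libraries. Among the 4 transcripts it was lowest between BLOC1S5-TXNDC5 and C1QTNF3-AMACR (0.143) and highest between C1QTNF3-AMACR and H4C11 (0.293). With the 4 transcripts themselves left out of the ranking, the listed genes nearest to BLOC1S5-TXNDC5 were NCBP2 itself (0.0661), the long noncoding RNA LINC01967 (0.0922) and ITIH3 (0.140), a serum protein that binds hyaluronan. Nearest to H4C11 were the pseudogene RHOXF1P3 (0.00255), the pseudogene TXLNGY (0.0533) and the antisense RNA KANSL1-AS1 (0.0696). H4C11 and RHOXF1P3 were both at 0 in both controls, so their likeness rests only on the split over the NCBP2 libraries. In these RHOXF1P3 had low levels, 0.45 and 0.78.

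Nearest to C1QTNF3-AMACR were RDH5 (0.121), the matrix protein gene HMCN1 (0.127) and the antisense RNA TRHDE-AS1 (0.154), of which TRHDE-AS1 was less near than BLOC1S5-TXNDC5. Nearest to PDCD6-AHRR were the long noncoding RNA LINC02458 (0.0229), ANKRD36C (0.0259) and the transcription factor gene ZBED6 (0.0675). Each of the 4 thus had a listed gene nearer to it than any of the other 3 transcripts. With 4 libraries and many listed genes, some near profile is easily met for any gene. The median to all listed genes was 0.184 for PDCD6-AHRR, 0.220 for C1QTNF3-AMACR, 0.284 for BLOC1S5-TXNDC5 and 0.293 for H4C11.

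Factors of 3' end processing were then looked up in the table. Of 16 genes of the cap-binding complex and its partners, NCBP2 alone was listed. None was listed of 24 genes of cleavage, polyadenylation and termination, such as CPSF3, the nuclease, and CSTF2, or of 12 genes of histone 3' end processing, such as SLBP and LSM11. Their levels were not analysed here. With only 38 genes listed, out of a number measured that is not given, such absences say little about these factors. GENCODE 29 holds 825 genes whose transcripts are all tagged as readthroughs, and how many of them were measured was not analysed here.

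**Figure D5:**
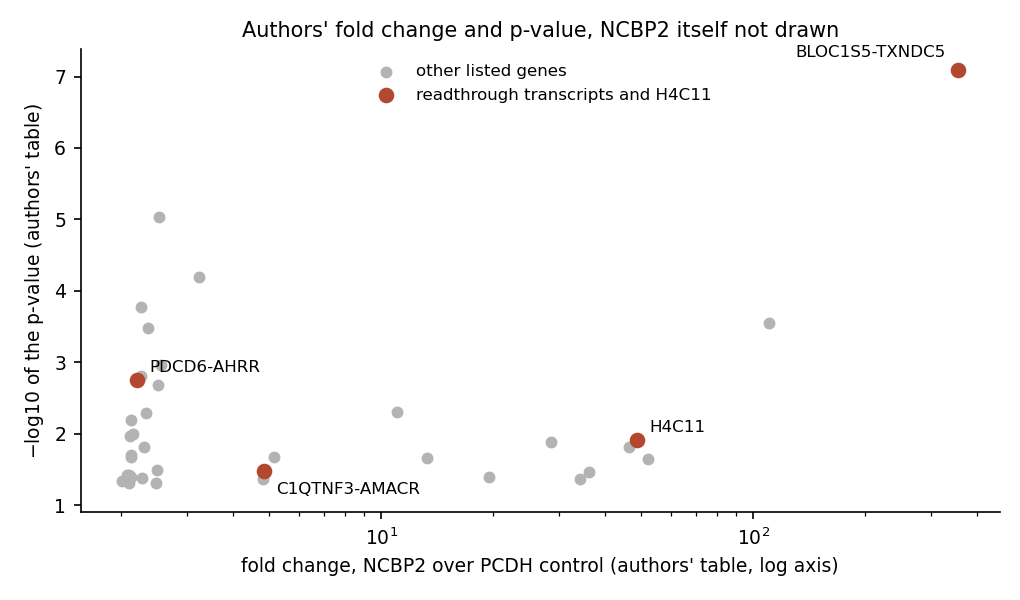
Fold change of NCBP2 over PCDH control (log axis) and −log10 of the p-value in the authors' deposited table for 37 of the listed genes, NCBP2 itself left out. BLOC1S5-TXNDC5 stands apart at a fold of 355, whereas H4C11, C1QTNF3-AMACR and PDCD6-AHRR lie among the other listed genes.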

How the data were processed

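The authors deposited a table of 38 genes with an expression signal (level) in each of 4 libraries, rounded to 0.01, the group means, a fold change (linear ratio) with its log2, and p-values before and after adjustment. The sources used here do not give its unit, scaling, tests, annotation or library selection. Bowtie 0.12.2 and mm9, a mouse build, are named per the submitters' processing notes, whereas the identifiers are human. Control columns are headed EV and were taken as the PCDH control, since the study has only these groups; they were not tied to single samples, and their library numbers are those of the headings.

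Means, SDs, ratios and log2(level + 1) differences were computed with pandas 2.3.3. The transcripts and gene lists were chosen with earlier results of these data known. Because the authors chose the genes on the same comparison, no test was run; 2 against 2 libraries cannot give an exact permutation p under 0.333 (two-sided). Named genes were the 4 transcripts, NCBP2, partner genes, RDH5, listed members of the gene lists, and for each transcript the 3 nearest profiles outside the 4. Positions, exons and transcript sequences came from GENCODE 29 (GRCh38), which held 3 of the 4 identifiers, and promoters from RefSeq (GRCh38.p14).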

Additional observations from a re-analysis of the deposited data

How the results depend on the processing

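With same-numbered column headings taken as pairs (a replicate block), the mean log2 difference is by construction the one without pairs, 0.58 for C1QTNF3-AMACR and 0.74 for PDCD6-AHRR. Over the pairs numbered 1 and 2 it was 0.84 and 0.33 for C1QTNF3-AMACR, and 0.33 and 1.16 for PDCD6-AHRR. The labels do not say that a number marks a shared culture or day, and control headings could not be matched to single samples. Leaving out 1 library at a time, the difference in mean level lay between 1.41 and 1.59 for BLOC1S5-TXNDC5, 0.42 and 0.68 for C1QTNF3-AMACR, 0.765 (without NCBP2 library 2) and 1.705 for PDCD6-AHRR, and 2.95 and 5.17 for H4C11. The log2 differences lay between 0.44 and 0.70 for C1QTNF3-AMACR, with no value without control library 2 because the remaining control is at 0, and between 0.52 and 0.97 for PDCD6-AHRR. With 0.1 in place of 1 added, they were 2.07 and 1.25. The groups were separate for 4 of the 4 transcripts and for 33 to 37 listed genes with 1 library fewer, a step that cannot lower such counts. With a filter at a mean level of 1 they were separate for 2 of 2 transcripts (PDCD6-AHRR and H4C11) and 19 of 24 listed genes, counts that fall because fewer genes enter. BLOC1S5-TXNDC5 was the 1 transcript past the authors' adjusted p at thresholds of 0.01 and 0.1 too. This count could hardly change, since the next smallest adjusted p in the authors' deposited table was 0.533, for PDCD6-AHRR. No direction was reversed under these alternatives. With both NCBP2 libraries above both controls for each transcript, none of these alternatives could have reversed one. Depth is not known, and how many reads lie behind a low level cannot be told.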
